A study of Oryza sativa with 6 samples.

Results

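Transcripts of 3 rice genes of the evening complex, ELF3-1 (LOC_Os06g05060, chromosome 6), ELF3-2 (LOC_Os01g38530, chromosome 1) and LUX (LOC_Os01g74020, chromosome 1), were followed from the end of the night to the end of the day. These 3 loci were taken by identifier from the 55801 loci of the count tables, and all 3 passed the filter on low counts. The plants were Oryza sativa seedlings of the cultivar Nipponbare, grown at 28 °C on Chu's medium in chambers under a day of 12 h light and 12 h dark. In the AM group (n = 3 libraries) they were taken 30 min before the light came on, and in the PM group (n = 3 libraries) 30 min before it went off. Both groups had the same genotype, and time of harvest was the difference that the labels give. Whether replicates were separate plants or cultures is not stated, and the p-values then reflect only differences among these libraries, which may be technical. The study asked how the choice of reference genome alters calls of expression and splicing. Counts against 1 reference, which is not named, were analysed here.

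The evening complex is a transcriptional repressor of the plant circadian clock, known best from Arabidopsis. There ELF3 is a scaffold protein that brings together ELF4, a small partner protein, and LUX, a MYB-like factor that binds DNA. The complex forms around dusk and in the night, and it holds down growth genes, several pseudo-response regulators and GI. Rice has a pair of ELF3 genes. ELF3-1 is also known as the heading date locus Hd17 or Ef7 and acts on flowering time upstream of the floral repressor Ghd7, whereas LUX is also listed as PCL1. The sources used here do not pair ELF4 genes with loci, so these were not analysed here.

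Gene counts came to between 13 M and 66.7 M per library. All 3 leaf markers were detected in every library and were called lower in PM, as were 28% of all loci tested. Levels here and below, unless stated, are CPM, counts scaled to library size and normalised by the trimmed mean of M-values (TMM). RCA, for Rubisco activase, was at 29245 to 44333 CPM in AM and 1152 to 1941 CPM in PM. PRK, for phosphoribulokinase, was at 7788 to 9452 CPM in AM and 1126 to 1177 CPM in PM, and the antenna gene LHCB4 at 9419.7 to 17310.5 CPM in AM and 35.2 to 35.7 CPM in PM. The labels give whole seedlings as the material but the organ as panicle. Of 9 floral MADS-box markers, MADS8 and MADS13 had no count in any library, MADS6 and MADS7 had 1 count each, and the 9 together took 6.28 to 8.67 CPM in AM and 3.28 to 5.17 CPM in PM. Most of the AM sum was MADS16, which was called lower (5.33 ± 1.01 CPM in AM, 1.30 ± 0.736 in PM), whereas MADS58 was called higher (0.458 ± 0.151 and 1.51 ± 0.336; SD, n = 3 each), and MADS1 and MADS4 did not pass the threshold. Of 3 root markers, the transporter genes LSI2 and AMT1;2 were at 0 in all libraries, while LSI1 was at 16.0 to 28.3 CPM in AM and 5.80 to 6.85 CPM in PM. In bulk tissue, fewer cells of a type and less RNA per cell cannot be told apart, and the part of these markers in the results below was not tested.

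The DNA-binding member LUX was nearly undetected at the end of the night and abundant at the end of the day. It had 16, 12 and 11 counts in AM replicates 1, 2 and 3, against 3523, 1408 and 10678 in PM replicates 1, 2 and 3. These counts correspond to 0.923, 0.278 and 0.373 CPM in AM and to 125, 81.0 and 195 CPM in PM. Every PM library lay far above every AM library, with no overlap, as was the case for 32.2% of the 20548 loci tested in that direction. On the log2 scale LUX was higher in PM by 8.17 (SE 0.52, 95% interval 6.97 to 9.36), with an adjusted p of 6.69e-06 by the edgeR quasi-likelihood test, which called 28% of the tested loci higher. On the linear scale this is a 288-fold rise with an interval from 125 to 659. Of all tested loci, 14 had a larger rise, and all 14 were called. LUX passed the filter on low counts through its PM libraries, so its presence among the tested loci was not independent of the difference; without any filter its log2 fold change was 8.21.

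LUX also varied within each group. In AM, exact 95% Poisson intervals of the counts, which cover counting error only, ran from 0.528 to 1.5 CPM in replicate 1, from 0.143 to 0.485 in replicate 2 and from 0.186 to 0.668 in replicate 3. Replicates 1 and 2 therefore differed by more than counting error, while replicate 3 overlapped with both. The 3 counts that serve as the limit for an undetected gene equal 0.0694 to 0.173 CPM in these libraries, so LUX was above that limit in each. In PM the highest library was 2.41 times the lowest, and the SD of log2 CPM was 0.63. Among 2106 loci with a mean PM level within 2-fold of that of LUX, the median SD was 0.20, and 98.1% had a smaller one. In AM the SD of LUX was 0.80, against a median of 0.52 at 2260 loci of similar level, where counts were few.

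**Figure D1:**
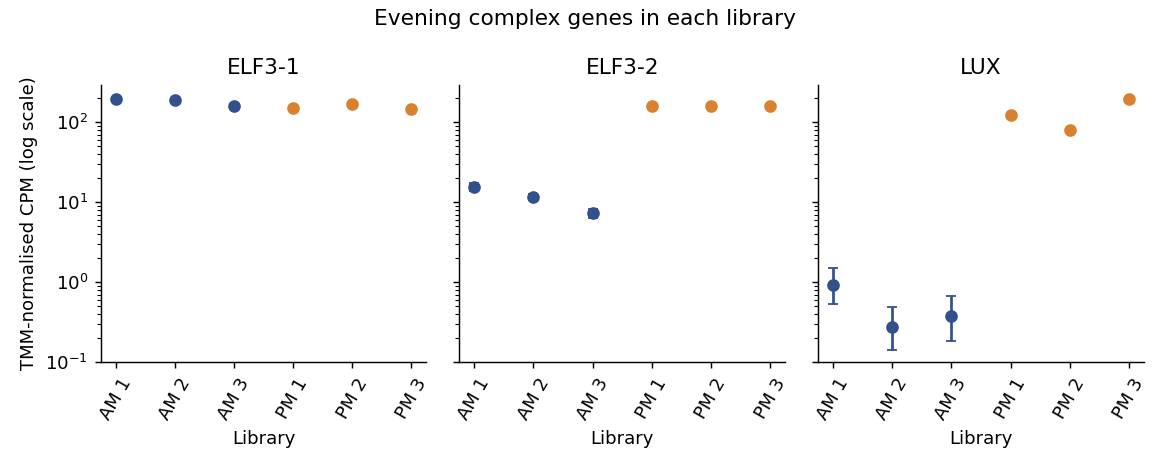
TMM-normalised CPM on a log axis for ELF3-1, ELF3-2 and LUX in the 3 AM libraries (blue) and the 3 PM libraries (orange); bars are exact 95% Poisson intervals of the count and are smaller than the points where not visible. ELF3-1 lies between 148 and 198 CPM throughout, ELF3-2 goes from at most 15.6 to at least 161 CPM, and LUX goes from below 1 CPM (at most 0.923) to at least 81.0 CPM.

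ELF3-2, a member of the scaffold pair, rose as well, from a low but well-counted level at the end of the night. Its counts were 270, 502 and 215 in AM replicates 1, 2 and 3, or 15.6, 11.6 and 7.30 CPM. In PM replicates 1, 2 and 3 they were 4520, 2822 and 8891, or 161, 162 and 162 CPM. The groups did not overlap, and the lowest PM value was far above the highest AM value. Of all tested loci, 32.2% likewise had every PM library above every AM library, and 28% were called higher. The log2 fold change of ELF3-2 was 3.82 (SE 0.28, 95% interval 3.19 to 4.45; edgeR quasi-likelihood adjusted p = 1.14e-05). This is a 14.1-fold rise with an interval from 9.14 to 21.9, and 395 loci, all of them called, had a larger rise.

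The measured spread of ELF3-2 was larger in AM than in PM, a difference that was not tested. The AM libraries ranged over 2.13-fold, and their Poisson intervals of 13.8 to 17.6, 10.6 to 12.7 and 6.36 to 8.34 CPM did not overlap one another. The PM libraries ranged over 1.01-fold, with intervals that all overlapped (156 to 166, 156 to 168 and 159 to 166 CPM). In PM the SD of log2 CPM was 0.0081, and 0.124% of 1615 loci of similar level had a smaller one. Each PM interval was wider than the range of the PM values. An SD this small from 3 libraries thus lies within counting error and does not measure how tightly the level was held. In AM it was 0.55, and 87.7% of 5937 loci of similar level had a smaller one.

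ELF3-1, the other member of the scaffold pair, was present at both times of day. It stood at 198, 188 and 158 CPM in AM replicates 1, 2 and 3 and at 149, 169 and 148 CPM in PM replicates 1, 2 and 3, from 2938 to 8117 counts per library. The groups overlapped, because PM replicate 2 lay above AM replicate 3. The log2 fold change was −0.22 (SE 0.16, 95% interval −0.58 to 0.14) and did not pass the threshold (edgeR quasi-likelihood adjusted p = 0.268). The interval allows a level in PM between 0.667 and 1.10 times that in AM. Of all tested loci, 15.4% had a smaller absolute fold change.

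The position of ELF3-1 depends on the scaling between libraries. The median log2 fold change of all tested loci was −0.01 after TMM scaling and 0.84 with library totals alone. Scaled by totals alone, ELF3-1 was at 154, 122 and 129 CPM in AM and at 206, 226 and 195 in PM, with no overlap. The share of all loci without overlap under that scaling was not counted. ELF3-1 was then called higher, as were 54.5% of all tested loci. Its log2 fold change was 0.63 (edgeR quasi-likelihood adjusted p = 0.0132). Relative to the median locus it lay at −0.21 under either scaling. LUX and ELF3-2 rose under both, by 9.0 and 4.68 with library totals alone. As background, 28% of the 20548 loci were called higher and 28% lower (55.9% in either direction) with TMM scaling; with library totals alone 54.5% were called higher and 13.5% lower.

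**Figure D2:**
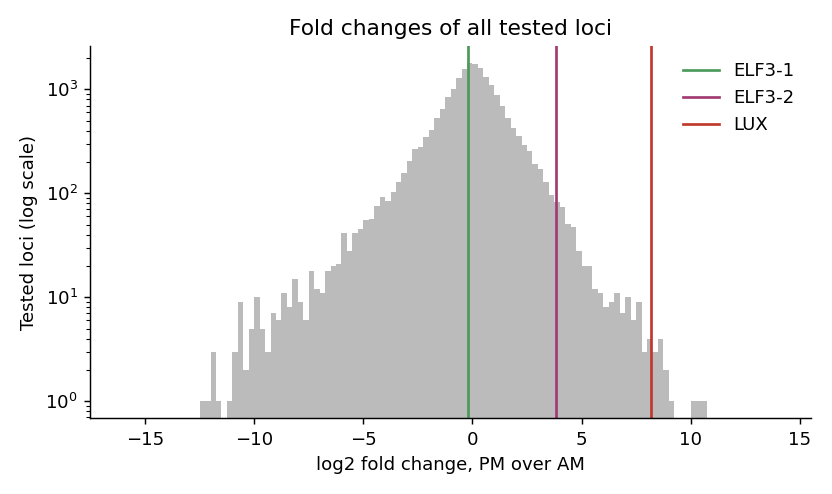
Histogram of log2 fold changes of PM over AM for the 20548 tested loci (bins of equal width, log axis for the number of loci), with vertical lines at ELF3-1 (−0.22), ELF3-2 (3.82) and LUX (8.17). ELF3-1 lies close to the centre, and LUX in the far right tail, where 14 loci had larger values.

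Ratios within a library do not depend on that scaling, and they separated the 2 ELF3 genes. ELF3-2 took 7.31%, 5.82% and 4.42% of the summed ELF3 counts in AM replicates 1, 2 and 3. In PM replicates 1, 2 and 3 it took 51.8%, 49.0% and 52.3%. The means were 5.85% ± 1.45 and 51.1% ± 1.80 (SD, n = 3 each). Wilson 95% intervals of single libraries reached at most 8.19% in AM and began at 47.7% or above in PM. They cover counting error only, not differences among libraries. The log2 ratio of ELF3-2 to ELF3-1 counts was higher in PM by 4.10 (SE 0.23), a 17.1-fold difference between the group means of the ratio, and every PM library lay above every AM library. How often ratios between other loci separate the groups in this way was not counted. The exact two-sided permutation test on the ratio of ELF3-2 to ELF3-1 gave p = 0.1, the smallest value that 3 libraries against 3 allow. These shares are of reads, not of molecules, since transcript lengths were not used here, so they do not say which gene had more transcripts.

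**Figure D3:**
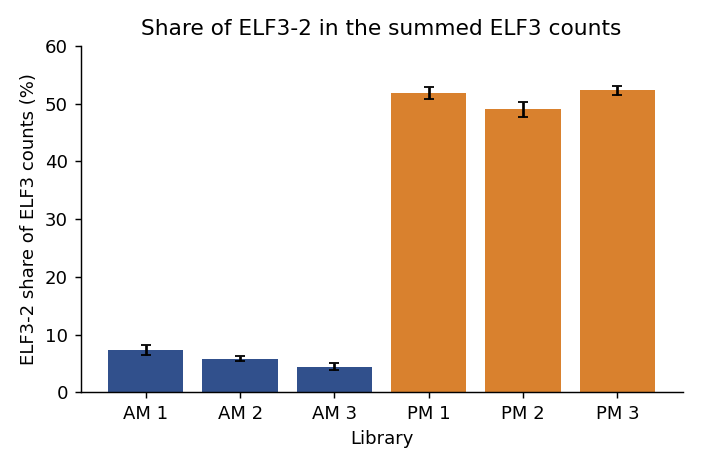
ELF3-2 counts as a percentage of the summed ELF3-1 and ELF3-2 counts in each library (AM blue, PM orange; error bars are Wilson 95% intervals, which cover counting error only). The 3 AM libraries lie between 4.42% and 7.31%, and the 3 PM libraries between 49.0% and 52.3%.

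The summed level of the ELF3 pair differed between the groups by less than that of ELF3-2 or LUX alone. It was 213, 199 and 165 CPM in AM replicates 1, 2 and 3 and 310, 331 and 310 CPM in PM replicates 1, 2 and 3. The groups did not overlap, and among single loci tested 32.2% likewise had every PM library above every AM library. The PM mean of the pair, 317 ± 12.1 CPM, stood against an AM mean of 193 ± 24.6 CPM (SD, n = 3 each). The mean difference was 0.73 on the log2 scale (SE 0.11), or 1.66-fold, with an exact permutation p = 0.1, the smallest possible. With library totals alone the difference was 1.58 on the log2 scale.

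The difference between the times of day was larger for LUX than for the scaffold genes in the same libraries. The log2 ratio of LUX to ELF3-2 counts was −4.04, −5.33 and −4.23 in AM replicates 1, 2 and 3 and −0.36, −1.0 and 0.26 in PM replicates 1, 2 and 3. It was therefore 4.16 higher in PM (SE 0.54), with no overlap. The log2 ratio of LUX to ELF3-1 counts was 8.26 higher in PM (SE 0.64), from a mean of −8.57 ± 0.83 in AM to −0.31 ± 0.73 in PM (SD, n = 3 each). Each of the 3 ratios compared had an exact two-sided permutation p = 0.1, and 0.1 after Benjamini-Hochberg adjustment over the 3. For ratios between other loci, the share without overlap was not counted.

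**Figure D4:**
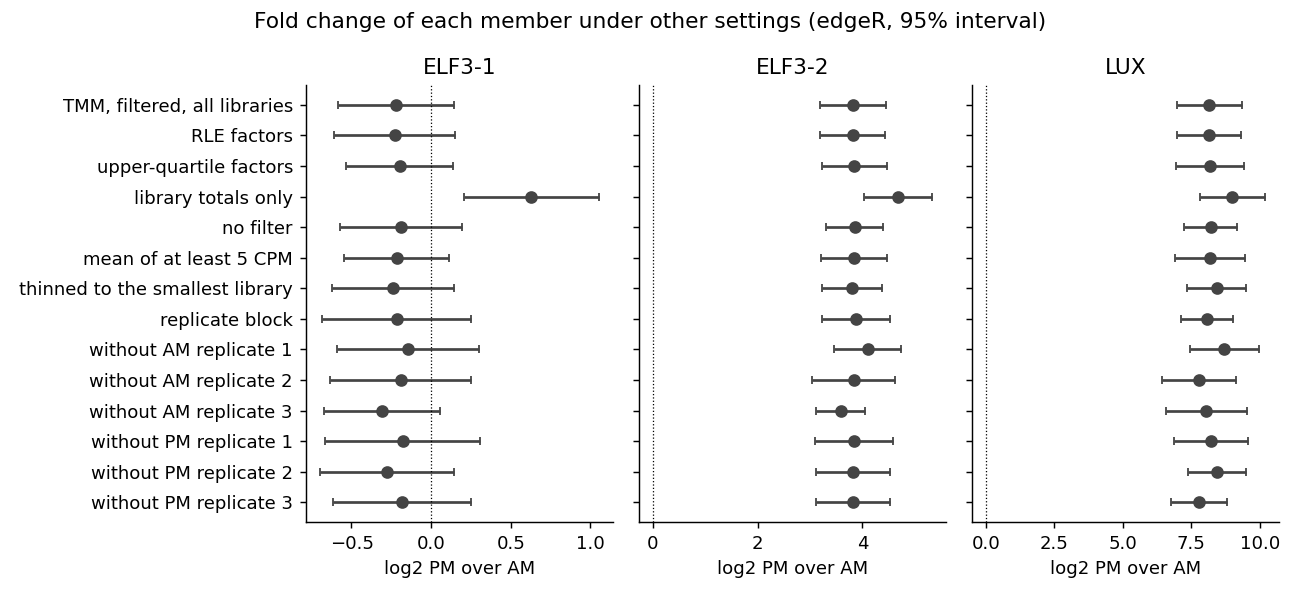
Log2 fold change of PM over AM with its 95% interval for each gene under the TMM scaling used throughout (top row) and under other edgeR settings, each panel with its own horizontal axis. The values of ELF3-2 (3.58 to 4.68) and LUX (7.79 to 9.0) stay above 0 in all rows, and ELF3-1 is above 0 with library totals alone (0.63).

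Loci with the most similar profile over the 6 libraries were found by the root mean square difference of log2 CPM, centred for each locus. For ELF3-1 the nearest were LOC_Os03g63520 and LOC_Os01g53060, at differences of 0.025 and 0.028 log2 units. The gene ZTL2 (LOC_Os06g47890), for a blue-light receptor of the ZEITLUPE family of F-box proteins, was 6th, at 0.038. It stood at 202, 190 and 155 CPM in AM and at 148, 163 and 155 CPM in PM replicates 1, 2 and 3. The nearest locus to ELF3-2 was LOC_Os09g19980, at 0.174, and the nearest to LUX was LOC_Os06g28050, at 0.408. LOC_Os06g28050 was at 0.346, 0.0463 and 0.170 CPM in AM and at 49.1, 59.2 and 65.9 CPM in PM. In AM replicate 2 it was below the limit of 3 counts, 0.0694 CPM in that library. LOC_Os06g28050 passed the filter on low counts through its PM libraries. FKF1 (LOC_Os11g34460), another blue-light F-box gene, was 30th in likeness to LUX, at 1.08, with 2, 7 and 1 counts in AM replicates 1, 2 and 3. ELF3-2 and LUX differed from each other by 2.08, and 234 loci were closer to LUX than ELF3-2 was. These distances describe 6 libraries in 2 groups and carry no test.

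Genes around the evening complex were called in both directions, as were the tested loci at large (28% higher and 28% lower with TMM scaling). Of 10 other clock genes, 4 were higher and 5 lower in PM and 1 did not pass the threshold, with a median log2 fold change of −0.42. Scaled by library totals alone, 5 of them were called higher and 3 lower, beside 54.5% and 13.5% of all tested loci. LHY, the dawn MYB factor that in Arabidopsis represses evening genes, was at 3982, 3802 and 4152 CPM in AM and at 4.98, 7.65 and 2.56 CPM in PM, the reverse of LUX. PRR73, a pseudo-response regulator, was at −4.22 (SE 0.20) on the log2 scale. Among those higher, FKF1 was at 6.6 (SE 0.46, and 7.30 with AM replicate 2 left out) and PRR59 at 1.64 (SE 0.21). FKF1 had 2, 7 and 1 counts in AM replicates 1, 2 and 3, below the limit of 3 counts in replicates 1 and 3. It passed the filter on low counts through its PM libraries, so its presence among the tested loci was not independent of the difference. GI, which the evening complex represses in Arabidopsis, rose with LUX, from 118 ± 50.5 to 378 ± 65.5 CPM (SD, n = 3 each; log2 1.69, SE 0.30). PRR37, a clock gene and floral repressor, was at 57.9 ± 21.0 CPM in AM and 32.7 ± 4.41 CPM in PM (log2 −0.82, SE 0.25, edgeR adjusted p = 0.0224), a call that was lost without PM replicate 1, with library totals alone, with glmTreat against a 2-fold change and at a threshold of 0.01.

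Flowering genes known to lie downstream of the clock were called in both directions. Of 5, 4 were tested, 2 of them higher and 2 lower in PM, with a median log2 fold change of −1.11. The share of all tested loci called was 28% in each direction. Ghd7, the floral repressor downstream of ELF3-1, had 79 counts over the 3 AM libraries and 2 over the 3 PM libraries, and it was called lower (edgeR adjusted p = 0.000963; 0.00182 and 0.00439 with PM replicate 1 or 3 left out). It passed the filter on low counts through its AM libraries, and it did not pass after thinning of all libraries to 13 M counts or with a mean of at least 5 CPM required. Hd1, the rice CONSTANS gene, rose from 0.594 ± 0.335 to 16.5 ± 1.62 CPM (SD, n = 3 each; log2 4.91, SE 0.36). The AM level of Hd1 rested on 17, 17 and 12 counts. Its log2 fold change was 5.37 with AM replicate 1 left out and 4.47 after thinning. DTH8, for a NF-Y subunit, was at 2.52 (SE 0.51) on the log2 scale, and at 1.90 with PM replicate 3 left out. The florigen gene Hd3a was at −4.75 (SE 0.63) from 8 counts in PM, and at −5.61 and −3.99 with PM replicate 1 or 3 left out. Ehd1 did not pass the filter on low counts. Hd1 and DTH8 passed it through their PM libraries, and Hd3a, like Ghd7, through its AM libraries. The presence of these 4 genes among the tested loci was therefore not independent of the difference.

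Light-input genes included the phytochromes, of which PHYB binds ELF3 in Arabidopsis. Of 9 genes tested, 3 were higher, 4 lower and 2 not past the threshold, with a median log2 fold change of −1.08. Among all tested loci, 28% were called higher and 28% lower. Scaled by library totals alone, 4 of the light-input genes were called higher and 3 lower, beside 54.5% and 13.5% of all tested loci. PIL15 was not used here. All 3 phytochrome genes rose: PHYB was at 55.1 ± 4.83 CPM in AM and 152 ± 9.01 CPM in PM (SD, n = 3 each; log2 1.46, SE 0.15), and PHYC was at 1.68 (SE 0.14) on the log2 scale. Those lower included the phytochrome-interacting factor-like genes PIL13, at −5.99 (SE 0.29), and PIL11, at −4.05 (SE 0.19). The 2 genes not past the threshold, at −0.19 and −1.13, belong to the same family, and neither result held in all settings. The one at −0.19 was called higher with library totals alone. The one at −1.13 (edgeR adjusted p = 0.0566) was called lower after thinning, with DESeq2 and with AM replicate 1 left out. In Arabidopsis, genes of this family are repressed by the evening complex, and a part of the complex in these differences was not tested.

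**Figure D5:**
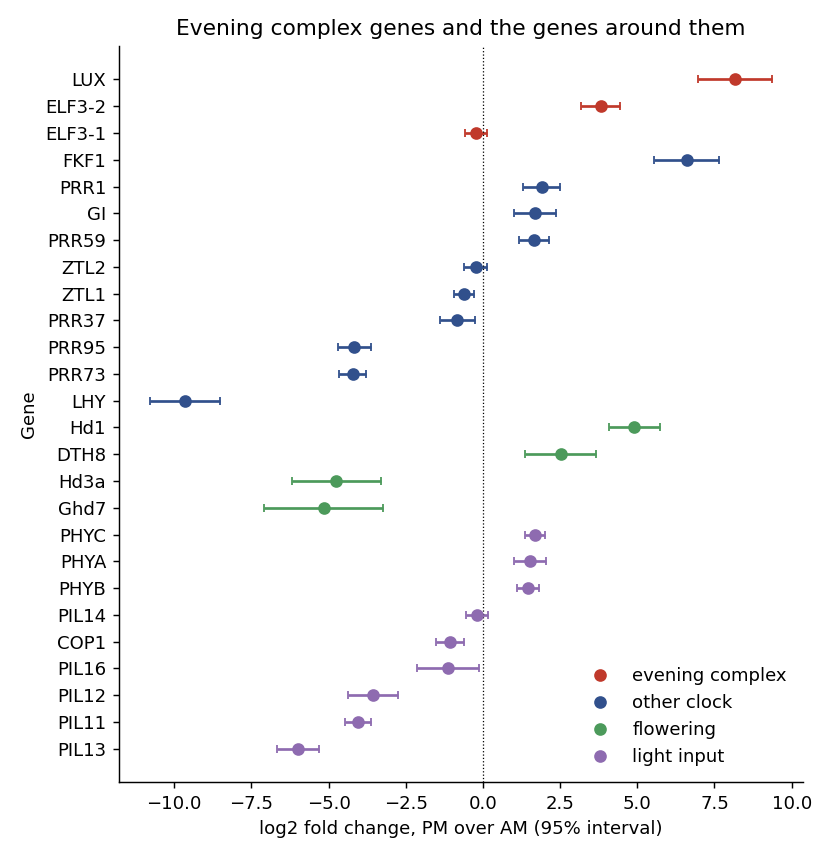
Log2 fold change of PM over AM with 95% intervals (edgeR) for the evening complex genes (red), other clock genes (blue), flowering genes (green) and light-input genes (purple) that were tested. LUX (8.17) has the highest value plotted and LHY (−9.65) the lowest. ELF3-1 (−0.22) and ZTL2 (−0.23), in separate groups of the plot, have similar values, both above 0 with library totals alone (0.63 and 0.62).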

How the data were processed

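RNA-seq libraries were made from 2 µg of total RNA each with a directional kit, per the labels' protocols. The submitters' processing notes list Trimmomatic 0.33, STAR and HTSeq 0.6.1, and what the authors deposited are raw counts per locus. Not given in the sources used here are the STAR version, genome build, annotation and strand setting; coordinates are therefore left out, and overlapping or antisense genes cannot be told apart. Reads aligned to more than 1 place (39.1% to 56.1% of records) and the other HTSeq summary lines were left out throughout; reads on no feature made up 2.92% to 6.26%. How alike the ELF3 transcripts are was not examined, since no sequences were at hand, and a planned motif search in promoters was not run.

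PM was compared with AM in R 4.3.3 by the quasi-likelihood test of edgeR 4.0.16 (glmQLFit, glmQLFTest), with TMM factors, the filterByExpr filter (minimum count 10; 20548 loci left) and Benjamini-Hochberg adjustment at 0.05 over all loci, after a trial on simulated counts. SEs come from the coefficient and its F statistic. Ratios used a prior count of 0.5 and exact two-sided permutation tests, and log2 CPM for spreads and likeness a prior count of 2. Other settings were RLE and upper-quartile factors, library totals, 2 other filters, thinning, DESeq2 1.42.0, limma-voom (limma 3.58.1), glmTreat, a threshold of 0.01, a replicate block and leaving out each library. Replicate pairs all differed beyond sampling noise (chi-square over its degrees of freedom 18.7 to 133).

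Members, lists and tests were chosen with earlier results of these data known. The text names every member. From each list it names the 2 called genes with the smallest p in each direction, and also LHY, GI, PRR37, Ghd7 and PHYB. It names the nearest locus of ELF3-2 and of LUX, the 2 nearest of ELF3-1, and listed genes among the 50 nearest. The RefSeq genes of assembly ASM3414082v1, listed without MSU identifiers, were searched for the symbols: of 28 names, 14 were found, each on the chromosome of its locus. ELF3-1 and LUX (as PCL1) were among them; the name ELF3-2 rests on the list. 1 gene of the lists is not reported here.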

Additional observations from a re-analysis of the deposited data

How the results depend on the processing

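ELF3-2 and LUX kept their direction and call in all 17 alternatives, with log2 fold changes from 3.58 to 4.68 and from 7.79 to 9.0. ELF3-1 did not pass the threshold and stayed below 0 in 16 alternatives, and it was at 0.63 and called higher with library totals alone, where the median of all loci moved to 0.84. Leaving out 1 library at a time gave −0.31 to −0.14 for ELF3-1, 3.58 to 4.10 for ELF3-2 and 7.79 to 8.70 for LUX. Differences of ratios and of the summed ELF3 level kept their sign in all alternatives run, but none of these tests could pass the threshold. Loci called higher and lower numbered 5748 and 5745; they numbered 11201 and 2764 with library totals alone and 2663 and 2834 with glmTreat against a 2-fold change, a stricter test by construction. Other clock genes called lower were 3 under each of these settings. With a mean of at least 5 CPM, which left out the rarer flowering genes, 1 was called higher and 0 lower, and after thinning 1 was called lower. The labels state no pairing of replicate numbers. Correlations of same-numbered deviations from the group means were −0.0579, −0.273 and 0.102, and different-numbered ones ran from −0.406 to 0.387. Deviations from a mean of 3 libraries are tied to one another, so these values cannot decide whether the samples were paired. With a replicate block the log2 fold changes of ELF3-1, ELF3-2 and LUX were −0.22, 3.88 and 8.08, and 5077 loci were called higher and 5060 lower. At 11 to 16 counts, depth limits the AM level of LUX, and with it the size of the fold change.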

Other observations

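Within PM, LUX was highest in replicate 3 and lowest in replicate 2, and the gene counts of these libraries ranked in the same way (41.7 M, 20.4 M and 13 M in replicates 3, 1 and 2). With all libraries thinned to 13 M counts in 1 random draw, LUX stood at 126, 81.3 and 191 CPM in PM replicates 1, 2 and 3. Before thinning the values were 125, 81.0 and 195 CPM. Random thinning keeps the expected share of each locus, and PM replicate 2, the smallest library, kept all its 1408 LUX counts. Similar values were therefore bound to come back, and whether depth had a part in this order was not tested. The thinned AM libraries held 6, 2 and 3 LUX counts. Of the 23 other listed genes tested, 6 ranked the PM libraries as LUX did, among them FKF1 and DTH8, and 7 ranked them in reverse, among them GI and LHY; these genes were picked after their values were seen. Over all tested loci the shares were 28.2% and 25.7%, close to the 26.1% and 30.4% of the listed genes.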
